A study of Mus musculus with 24 samples.

Results

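The genes described here are 10 genes of the spindle assembly checkpoint and the kinetochore: *Bub1*, *Bub1b*, *Bub3*, *Mad1l1*, *Mad2l1*, *Ttk*, *Cenpe*, *Zwint*, *Cdc20* and *Knl1* (on the array as *Casc5*). They were chosen by function, as 10 of 18193 genes with a probe set of their own, and have 29 probe sets, of which 27 passed the filter on low signals. Each gene is described by its brightest probe set over all arrays, and the other probe sets serve as a check. The data are 24 Affymetrix mouse arrays of sorted CD4 and CD8 double-negative (DN) thymocytes from mice that the labels give as 6 to 8 weeks old on an outbred ICR background, while the methods allow younger animals and describe the transgenic line as bred onto CD1 before it was crossed with ICR Scid mice. By their surface markers, DN1 cells are CD44 positive and CD25 negative, DN2 cells carry both, and DN3 cells carry CD25 without CD44. The transgenic mice were *IgHμ-TLX1* Tg *Prkdc* Scid/Scid animals (called TLX1 here, HOX11 in the labels), which express the homeobox oncogene *TLX1* from an immunoglobulin heavy chain promoter that is best known from B cells, and the controls were *Prkdc* Scid/Scid mice. Both genotypes carry the Scid mutation of the DNA-PK catalytic subunit, which helps to join broken DNA ends during antigen receptor rearrangement, and neither represents wild-type thymocytes. Each genotype had 4 pools of 2 to 5 mice, and each pool gave 1 array at each of the 3 stages. Female mice made up TLX1 pools 1 and 4 and control pools 2 and 4, and male mice the rest. Values are MAS5 signals, an intensity on a linear scale, and fold changes are on the log2 scale after signals under 1 were set to 1.

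The spindle assembly checkpoint holds a dividing cell in mitosis until every chromosome is attached to the spindle. At an unattached kinetochore, the kinase encoded by *Ttk* (Mps1) phosphorylates the scaffold Knl1, which recruits Bub1, Bub3 and BubR1, the product of *Bub1b*. Mad1, encoded by *Mad1l1*, tethers Mad2 (*Mad2l1*) there, and Mad2, BubR1 and Bub3 join Cdc20 in a complex that keeps the anaphase promoting complex (APC/C) inactive. *Cenpe* encodes a kinetochore motor and *Zwint* a Knl1-binding protein that links to the Rod-Zw10-Zwilch complex. Most of these genes are known as cell cycle genes with a peak of mRNA in G2 and mitosis. In the thymus, early progenitors are known to divide repeatedly before and during the DN2 stage, and to leave the cycle at DN3 while the T cell receptor β locus is rearranged.

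Many G2 and mitosis genes carry a cell cycle genes homology region (CHR, letters TTTGAA), which is bound by the DREAM and MuvB complexes. RefSeq promoter windows of build GRCm38.p6, with 250 bases before and 50 bases after a start site, were searched on both strands for 3 motifs. All 10 genes matched the table, with 12 windows. The CHR letters were in 6 of the 12 windows and 5 of the 10 genes, against 17.9% of the 32851 windows of all genes. CCAAT, the letters of the NF-Y site, was in 8 of the 12 windows and 7 genes (*Bub1*, *Bub1b*, *Bub3*, *Cdc20*, *Cenpe*, *Ttk* and *Zwint*), against 37.4% of all windows. The E2F letters TTTGGCGC, TTTCGCGC, TTTGCCGC or TTTCCCGC were in 0 of the 12 windows and in 2.26% of all windows. These are matches of letters and were not tested as binding sites. The 5 genes were picked by their CHR letters, and the bases around these letters differ between them. The 30 bases around each CHR match are shown, with the match in capitals:
Bub1b: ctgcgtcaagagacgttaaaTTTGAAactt
Knl1: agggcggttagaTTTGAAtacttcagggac
Cdc20: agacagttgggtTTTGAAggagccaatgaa
Bub3: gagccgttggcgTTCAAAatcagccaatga
Ttk: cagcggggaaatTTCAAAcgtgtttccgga
The window of *Bub1b* lies at chr2:118598231-118598260 on the plus strand, and its match begins 41 bases past the start site. The window of *Knl1* lies at chr2:119047138-119047167 on the plus strand, with its match 32 bases past the start. The window of *Cdc20* lies at chr4:118437344-118437373 on the minus strand, and its match begins at position -18, before the start and ahead of a CCAAT that begins at position -8. In *Bub3* (chr7:131560315-131560344) and *Ttk* (chr9:83834684-83834713), both on the plus strand, the CHR letters stand on the opposite strand and so read TTCAAA. In *Bub3* they lie at position -43 from 1 start and at -167 from the other, and a CCAAT follows them in the printed window. In *Ttk* they begin at position 8.

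The sorted cells carried the markers of their gates. *Cd44* ranged from 1268 to 1913 in the TLX1 arrays and from 892 to 1805 in the control arrays of DN1, against 9.52 to 29.03 in TLX1 and 13.04 to 18.9 in control arrays of DN3. *Il2ra*, the gene of CD25, was at 523 to 1171 in TLX1 and 488 to 786 in control DN1 cells, and at 4270 to 5187 and 4688 to 5518 in TLX1 and control DN2 cells. The DN1 fraction also held RNA of other cells: the summed signal of 8 natural killer cell genes was 16750 to 27276 in TLX1 pools and 12875 to 30936 in control pools at DN1, against 2649 to 2947 and 2493 to 3199 at DN2. Of 10 myeloid genes tested, 9 fell between DN1 and DN2, as did 8 of 8 natural killer genes, beside 31.2% of all probe sets. The array's mouse *Tlx1* probe set was at 4.51 to 11.4 in TLX1 arrays and at 2.75 to 17.3 in control arrays, so it did not separate the genotypes. Whether it reads the transgene was not tested, and the labels of the TLX1 arrays could not be checked from it.

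Both TLX1 pool 2 and control pool 3 stood apart at DN1. They are the pools that the study's description of the cohorts lists with the most cells outside the 3 gates. *Rag1*, which encodes a recombinase that DN3 cells use, was at 3193 in TLX1 pool 2 at DN1 and at 46.9 to 199 in the other TLX1 pools. In control pool 3 it was at 3769, against 35.5 to 126 in the other control pools. *Ptcra*, the pre-T cell receptor α chain, was at 677 in TLX1 pool 2 and 1296 in control pool 3, against at most 102 in the other TLX1 pools and 77.3 in the other control pools. *Top2a*, a marker of dividing cells, was at 3471 and 3556 in these 2 arrays and at 878 to 1784 in the other 6 DN1 arrays. Over all probe sets tested, the DN1 arrays of TLX1 pool 2 and control pool 3 had correlations of 0.893 and 0.903 with the mean DN2 array of the other pools, and the other DN1 arrays had correlations of 0.828 to 0.879. The counts of calls between stages are therefore given with all 8 pools and without these 2. Each of the 2 was also the highest pool of its genotype at DN1 in 9 of the 10 genes. Leaving them out thus raises the DN2 over DN1 change and narrows the DN1 spread by construction. Results without them describe the other 6 pools and are no independent support. Correlations and values of other probe sets are with all pools.

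Between DN1 and DN2, 7 of the 10 genes rose: *Bub1*, *Bub1b*, *Bub3*, *Mad2l1*, *Ttk*, *Cenpe* and *Cdc20*, by 1.26-fold to 2.40-fold over the 8 pools. *Mad1l1*, *Zwint* and *Knl1* did not pass the test. Between DN2 and DN3, 9 of the 10 genes had a negative change and 0 passed the test with all pools, while 7 of 10 fell without TLX1 pool 2 and control pool 3. The change was within pools, in limma with the pool as a block and an adjusted p under 0.05 as a call. Of all 27022 probe sets tested, 28.5% were called higher and 31.2% lower at DN2 than at DN1, so that calls were common. The median change of the 10 genes was 0.79, against -0.06 over all probe sets tested. In such bulk samples, more dividing cells, fewer cells of other types and more RNA of these genes per cell cannot be told apart.

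**Figure D1:**
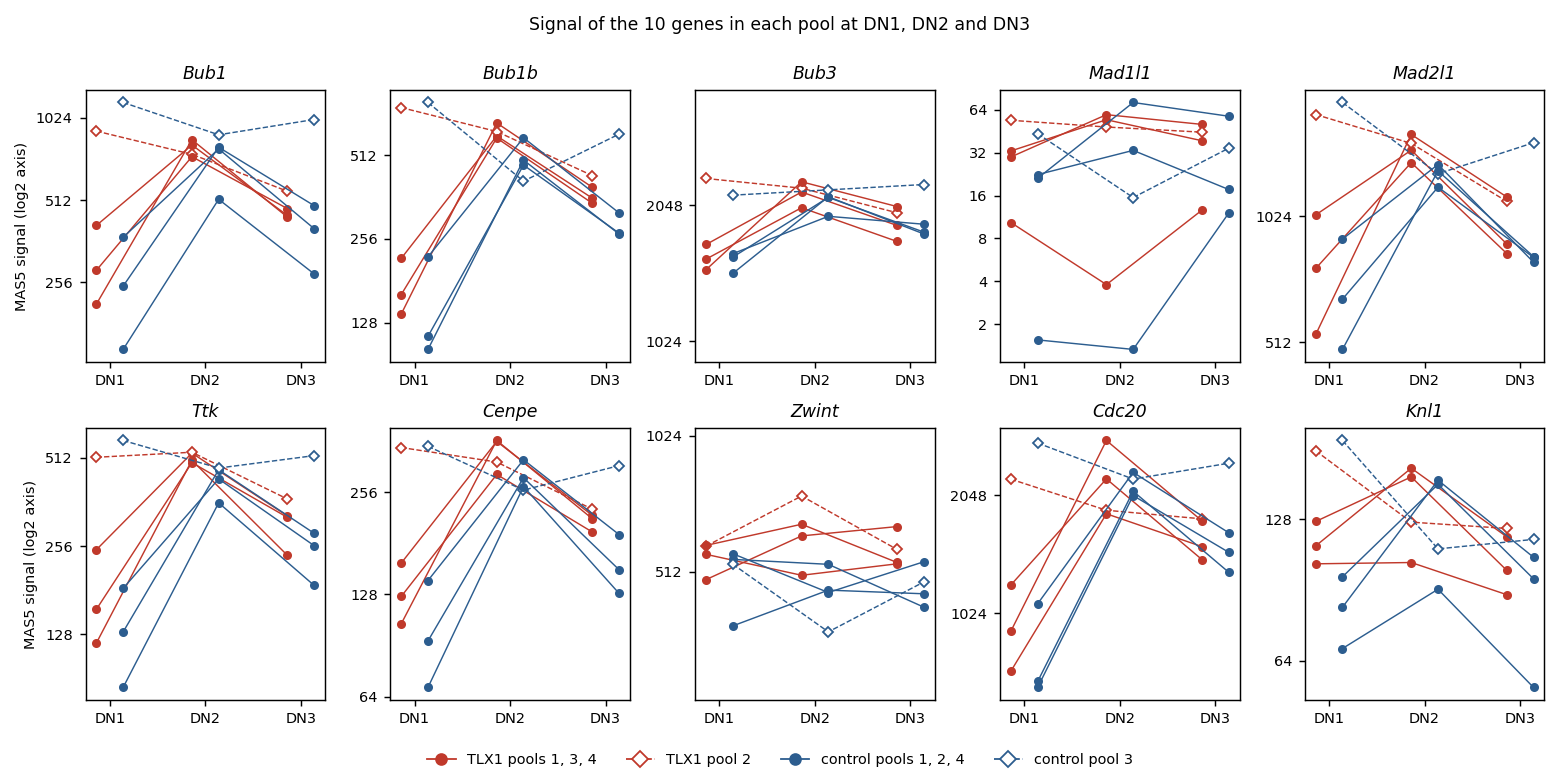
MAS5 signal (log2 axis) of the 10 genes at DN1, DN2 and DN3, with 1 line per pool, TLX1 pools left of control pools, and TLX1 pool 2 and control pool 3 as open diamonds with dashed lines. In *Bub1* the 4 TLX1 pools ran from 213 to 916 at DN1 and from 738 to 852 at DN2, and TLX1 pool 2 and control pool 3 started highest.

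The kinase genes come first. *Ttk* (chromosome 9, 83834651 to 83872390) was at 249, 515, 156 and 119 in TLX1 pools 1 to 4 and at 130.2, 183, 588 and 84.1 in control pools 1 to 4 at DN1. At DN2 it was at 532, 536, 493 and 503 in TLX1 pools and at 466, 434, 473 and 359.6 in control pools. At DN3 it was at 324, 371, 321 and 238 in TLX1 pools and at 283, 257, 522 and 188 in control pools. The DN1 signals were low in 6 pools and high in TLX1 pool 2 and control pool 3, so the DN1 and DN2 ranges overlapped only through these 2 pools. The DN2 over DN1 change of *Ttk* was 1.22 (SE 0.24, limma adjusted p = 0.000501), the smallest p of the 10 genes, and it was 1.67 (SE 0.14) without the 2 pools.

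*Bub1* (chromosome 2, 127800197 to 127831859), the checkpoint kinase that also marks the inner centromere, showed the same order. At DN1 its signal was 413, 916, 283 and 213 in TLX1 pools and 248, 374, 1166 and 145 in control pools. The DN2 signals were 815, 753, 738 and 852 in TLX1 pools and 799, 788, 888 and 515 in control pools. The signal was higher at DN2 than at DN1 in 6 of the 8 pools, and lower in TLX1 pool 2 and control pool 3. The change was 1.03 (SE 0.24, limma adjusted p = 0.00214), and 1.49 without the 2 pools. At DN3 *Bub1* was at 449.7, 552, 476 and 443 in TLX1 pools and at 489, 402, 1010.2 and 275 in control pools, with control pool 3 again the highest.

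The genes of the inhibitory complex differed in the size of their change more than in its direction. *Bub1b* (chromosome 2, 118598202 to 118641592) had the largest change, 1.27 (SE 0.32, adjusted p = 0.00334, limma). Its DN1 signal was 218, 759.8, 161 and 137 in TLX1 pools and 114, 221, 792 and 102 in control pools. Those at DN2 were 601, 623, 590.2 and 669 in TLX1 pools and 472, 592, 413 and 492 in control pools. Without TLX1 pool 2 and control pool 3 the change of *Bub1b* was 1.89 (SE 0.14), or 3.71-fold, and no remaining DN1 pool reached the lowest remaining DN2 pool.

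*Mad2l1* (chromosome 6, 66535221 to 66541107) was at 1031, 1791, 768 and 534 in TLX1 pools and at 648, 902, 1913 and 492 in control pools at DN1. At DN2 it was at 1472, 1527, 1374 and 1604 in TLX1 pools and at 1201, 1360.2, 1293 and 1313 in control pools, a narrow range in both genotypes. The change was 0.63 (SE 0.21, limma adjusted p = 0.0170). It missed the threshold when TLX1 pool 4, control pool 1 or control pool 4 was left out, at changes of 0.48, 0.58 and 0.49, and was 0.97 without TLX1 pool 2 and control pool 3.

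*Bub3* (chromosome 7, 131560367 to 131571895), whose protein also binds BubR1 and Bub1 outside mitosis, was bright and changed little. At DN1 its signal was 1677, 2349, 1557 and 1475 in TLX1 pools and 1447, 1573, 2157 and 1600.3 in control pools. The DN2 signals were 2192, 2236, 2023 and 2310.0 in TLX1 pools and 2139.9, 2133, 2217 and 1937 in control pools. The change of 0.33 (SE 0.081, limma adjusted p = 0.00267) was small beside that of the other called genes but close in p, since the pools of *Bub3* lay near each other. It was 0.45 without TLX1 pool 2 and control pool 3.

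*Cdc20* (chromosome 4, 118432901 to 118437343), the APC/C activator that the checkpoint holds back, was at 1209, 2251, 729 and 922 in TLX1 pools and at 686, 1082, 2783 and 662 in control pools at DN1. At DN2 it was at 2255, 1875, 1837 and 2826 in TLX1 pools and at 2097, 2343, 2252 and 2044 in control pools. The change was 0.95 (SE 0.21, limma adjusted p = 0.00147), and 1.37 without the 2 pools. *Cdc20* was also the only gene of the 10 that was called higher at DN3 than at DN1 with all pools (0.55, SE 0.21, adjusted p = 0.0429, limma). Leaving out TLX1 pool 1, 3 or 4 or control pool 1, 2 or 4 ended that call. At DN3 its signal was 1404, 1783, 1515 and 1762 in TLX1 pools and 1303, 1644, 2472 and 1465 in control pools.

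Among the kinetochore genes, the motor gene *Cenpe* (chromosome 3, 135212563 to 135273540) rose by 1.04 (SE 0.23, limma adjusted p = 0.00122), and by 1.49 without the 2 pools. It was at 158, 347, 126 and 105 in TLX1 pools and at 93.4, 141, 349.6 and 68.1 in control pools at DN1, and at 361, 314, 289 and 364 in TLX1 pools and 283, 319, 259.8 and 266 in control pools at DN2. TLX1 pool 2 and control pool 3 already had DN2-like signals of *Cenpe* at DN1. *Knl1* (chromosome 2, 119047119 to 119110497) was dimmer, with 127, 179, 112 and 103 in TLX1 pools and 83.1, 96.5, 188 and 67.9 in control pools at DN1. At DN2 it was at 157, 126, 164 and 103 in TLX1 pools and at 155, 152, 111 and 90.8 in control pools. Its change of 0.20 (SE 0.15, adjusted p = 0.286) missed the threshold in limma, and it was 0.47 (SE 0.097, adjusted p = 0.00173) without the 2 pools, so that 8 of 10 genes were then called higher, beside 30.3% of all probe sets higher and 31.7% lower.

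*Zwint* (chromosome 10, 72654846 to 72674964) did not follow the other genes by its brightest probe set. It was at 491, 583, 585 and 559 in TLX1 pools and at 545, 388, 531 and 561 in control pools at DN1, and at 614, 753, 652 and 502 in TLX1 pools and 531, 466, 376 and 460.0 in control pools at DN2. The stages overlapped in both genotypes, and the change was 0.02 (SE 0.098, limma adjusted p = 0.893), or 0.04 without the 2 pools. Other probe sets of *Zwint* differed: of the 5 others tested, 4 were called higher at DN2, at 0.73, 0.65, 0.35 and 0.39, and 1 had a change of -0.05. What *Zwint* did therefore depended on the probe set. With the median of each array set to a common value, 9 of the 10 genes were called higher, with *Zwint* at 0.36 and *Knl1* at 0.54 among them, beside 47.1% of all probe sets. This centring also moved the median change of all probe sets to 0.29.

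*Mad1l1* (chromosome 5, 140008689 to 140321608) was the dimmest of the 10, with a mean signal of 32.1, and had no second probe set that passed the filter. In TLX1 pools 1 to 4 it was at 29.8, 53.9, 32.9 and 10.3 at DN1 and at 59.0, 48.4, 54.4 and 3.80 at DN2. In control pools it was at 22.4, 21.1, 43.4 and 1.55 at DN1 and at 33.2, 71.9, 15.5 and 1.33 at DN2. Pool 4 was the lowest in both genotypes at both stages. The change of 0.09 (SE 0.43, limma adjusted p = 0.866) has the widest error of the 10 genes, and it was 0.40 without TLX1 pool 2 and control pool 3.

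Over all 27 probe sets tested, 17 were called higher at DN2 and 1 lower. The lower one was a dim *Bub3* probe set at -0.38 (limma adjusted p = 0.0357), while a brighter second probe set of *Bub3* was at 0.43. The 2 others of this gene were at -0.31 (adjusted p = 0.0625, limma) and -0.47 (adjusted p = 0.168, limma), so that 3 of its 5 probe sets had a negative change and their median was -0.31, against 0.33 by the brightest. The 2 other *Cdc20* probe sets were 1.95-fold and 2.64-fold higher, and those of *Bub1* and *Ttk* had log2 changes of 1.08 and 0.81, in the direction of the brightest probe set of each. The second *Knl1* probe set was at -0.15 and the dimmest of *Bub1b* at -0.11, and neither passed the test.

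**Figure D2:**
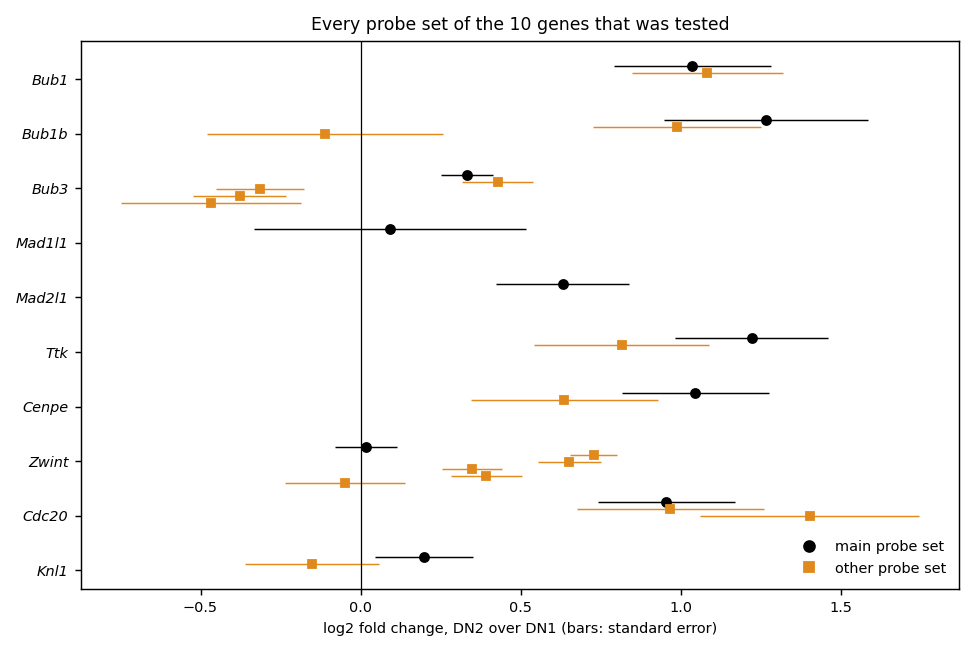
DN2 over DN1 log2 fold change ± SE (8 pools) of all 27 tested probe sets of the 10 genes, with the brightest probe set of each gene as a black circle and the others as orange squares. The probe sets of *Cdc20* lie together, and those of *Bub3* and *Zwint* spread on both sides of 0.

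Each pool's own change showed how far the 2 pools carried the averages. Between DN1 and DN2, 10, 2, 10 and 8 of the 10 genes were higher in TLX1 pools 1 to 4, with median changes of 0.94, -0.19, 1.02 and 1.60. In control pools 1 to 4, 9, 10, 1 and 8 genes were higher, with medians of 1.25, 1.09, -0.46 and 1.52. In 6 pools most of the genes rose to DN2, and in TLX1 pool 2 and control pool 3 most were lower. The 2 genes that were lower in TLX1 pool 4 and control pool 4 belong to the 3 genes that did not pass the test with all pools.

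**Figure D3:**
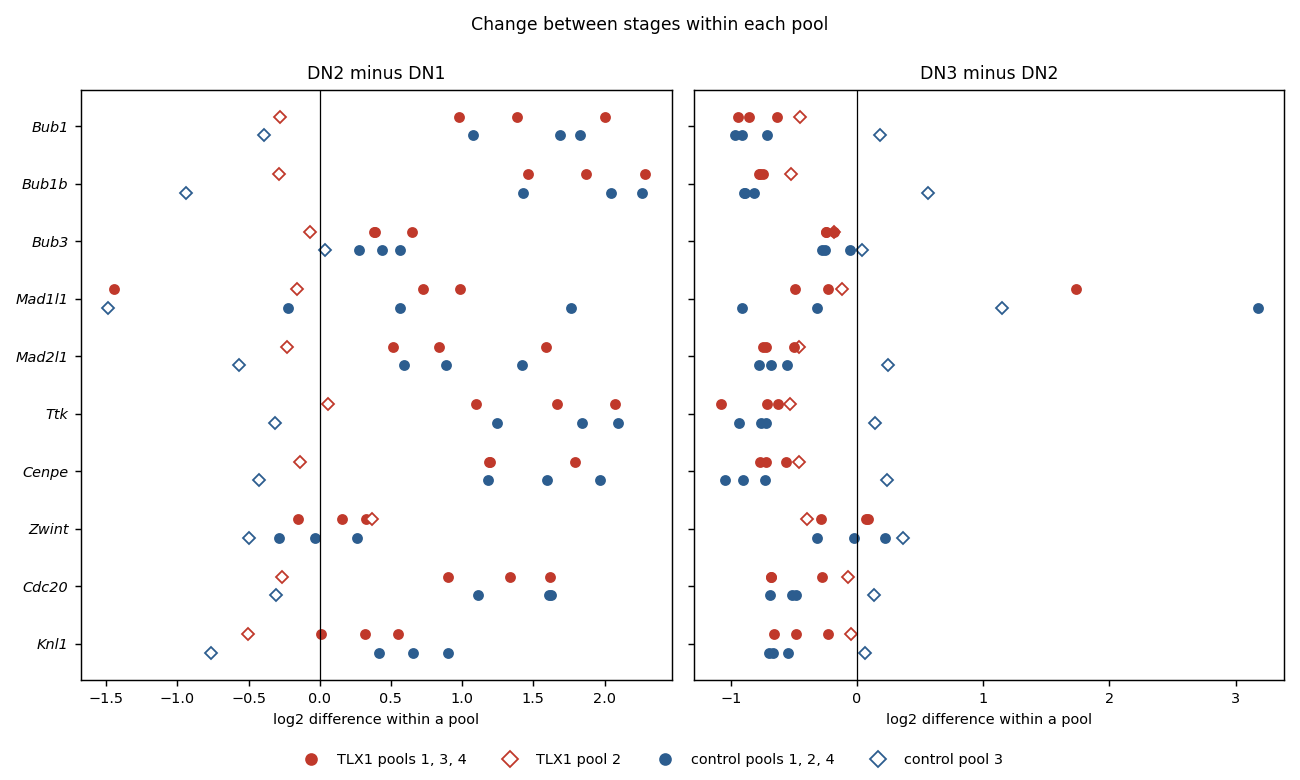
Log2 difference between stages within each pool for the 10 genes, DN2 minus DN1 on the left and DN3 minus DN2 on the right, with TLX1 pools above control pools and TLX1 pool 2 and control pool 3 as open diamonds. Control pool 3 had 9 of 10 genes lower at DN2 than at DN1 and 10 of 10 higher at DN3 than at DN2.

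From DN2 to DN3, 9, 10, 10 and 8 of the 10 genes were lower in TLX1 pools 1 to 4, and 10, 10, 0 and 8 in control pools 1 to 4. All 10 were higher in control pool 3, with a median change of 0.21, and the medians of the other 7 pools lay between -0.70 and -0.42. The DN2 array of control pool 3 had an index of 3' bias (explained below) of 0.99, against 0.12 to 0.44 in the other DN2 arrays. The part of this bias in the rise of control pool 3 was not tested. Over the 8 pools, 0 of the 10 genes were called in limma, beside 6.93% of all probe sets higher and 4.07% lower. Unadjusted p was under 0.05 for 6 genes, and for 28.9% of all probe sets. The lowest adjusted p was 0.0909 (*Ttk*, at -0.65), and *Cenpe*, *Bub1* and *Knl1* followed at -0.62, -0.66 and -0.41 with adjusted p of 0.0940, 0.0943 and 0.0986. The median of the 10 genes was -0.47, against 0.08 over all probe sets tested.

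Without TLX1 pool 2 and control pool 3, 7 of the 10 genes fell between DN2 and DN3, beside 7.3% of all probe sets called lower and 8.99% higher. *Bub1* fell by 0.84 (adjusted p = 0.00740), *Bub1b* by 0.81 (adjusted p = 0.00525) and *Ttk* by 0.81 (adjusted p = 0.00639), all in limma. *Cenpe* had the smallest adjusted p (0.00261, at -0.79), and *Mad2l1*, *Cdc20* and *Knl1* fell by 0.66, 0.55 and 0.55. *Bub3* (-0.21, adjusted p = 0.0552), *Zwint* and *Mad1l1* did not pass. Leaving out control pool 3 alone gave 5 calls, and leaving out any other single pool gave 0 calls. With all pools, 8 genes were called lower under limma's array weights, beside 12.5% of all probe sets. The count was 4 after adjustment for an index of RNA quality, beside 6.11%, and 2 after median centring of the arrays, beside 10.1%.

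Against DN1, 1 of the 10 genes was called higher at DN3 with all pools, *Cdc20*, beside 30.1% of all probe sets higher and 25.0% lower. *Ttk* was at 0.57 (adjusted p = 0.0576, limma) and *Bub1b* at 0.66 (adjusted p = 0.0950). Without TLX1 pool 2 and control pool 3, 6 genes were called higher: *Bub1* at 0.66, *Bub1b* at 1.08, *Bub3* at 0.24, *Ttk* at 0.86, *Cenpe* at 0.70 and *Cdc20* at 0.81, beside 31.8% of all probe sets higher and 26.6% lower. Leaving out TLX1 pool 2 alone gave 5 calls and control pool 3 alone 4 calls, and leaving out any other pool gave 0. In the remaining 6 pools the mean DN3 levels of these 6 genes thus lay between those of DN1 and DN2.

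The spread between pools depended on the stage. In TLX1 pools the 10 genes had a median SD, on the log2 scale, of 0.75 at DN1, 0.13 at DN2 and 0.16 at DN3, against medians of 0.34, 0.29 and 0.26 over all probe sets tested. In control pools it was 0.99, 0.19 and 0.51, against 0.41, 0.33 and 0.33. With all 4 pools, the median SD of the genes was above that of all probe sets at DN1 in both genotypes and below it at DN2. For the 12064 probe sets at least as bright as the dimmest gene other than *Mad1l1*, the medians were lower. They were 0.255, 0.188 and 0.185 in TLX1 pools and 0.311, 0.229 and 0.227 in control pools. At DN2 the genes lay closer to these medians than to those of all probe sets. Of the 10 genes, 8 in TLX1 pools and 8 in control pools had an SD above the median of all probe sets at DN1, and 3 and 3 did at DN2. At DN3, 2 did in TLX1 pools and 8 in control pools. After these SDs were seen, they were also taken over 3 pools a genotype, without TLX1 pool 2 and control pool 3. The median SD of the genes was then 0.35, 0.15 and 0.16 in TLX1 pools, against 0.295, 0.29 and 0.27 over all probe sets, and 0.48, 0.15 and 0.23 in control pools, against 0.27, 0.29 and 0.28. By stage, the genes above the median of all probe sets then numbered 7, 3 and 1 of 10 in TLX1 pools and 8, 3 and 5 of 10 in control pools. The median SD of the genes at DN1 was thus smaller without the 2 pools but still above that of all probe sets, and in control pools at DN3 it was no longer above it. The SDs were described and not tested.

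**Figure D4:**
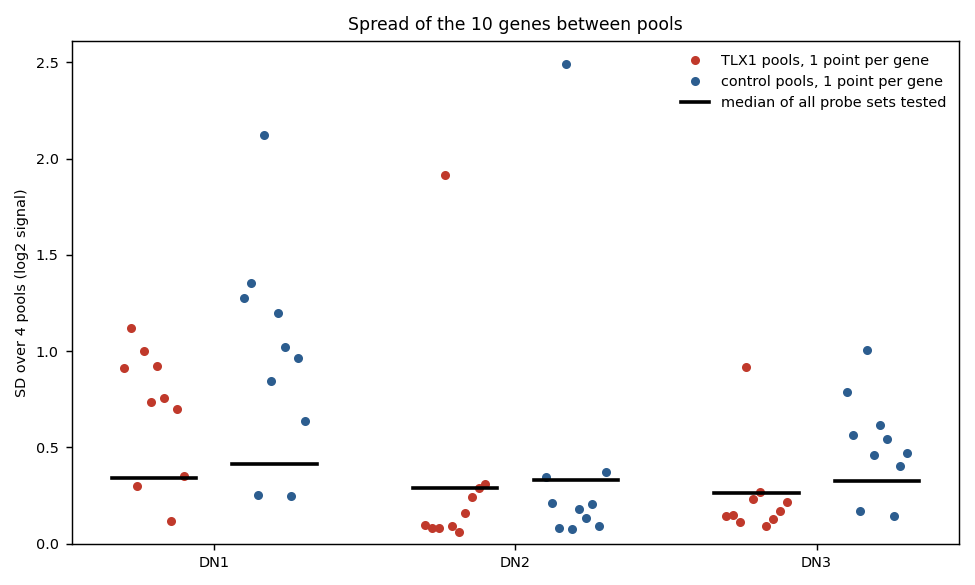
SD over the 4 pools (log2 scale) of each of the 10 genes, by stage, with TLX1 pools left of control pools, all pools included and a black bar at the median SD of all probe sets tested. At DN1 8 of 10 genes lie above the bar in each genotype, and at DN2 3 of 10.

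The same pools were at the ends in most genes. At DN1, TLX1 pool 2 was the highest TLX1 pool in 9 of the 10 genes and control pool 3 the highest control pool in 9. Pool 4 was the lowest at DN1 in 8 of the 10 genes in each genotype, and the myeloid list was brightest in TLX1 pool 4, at a summed signal of 42382 against 4846 to 25784 in the other TLX1 pools. In control pools the myeloid sum was 17046 to 20342, and natural killer genes were lowest in TLX1 pool 2 (16750) and control pool 3 (12875). The part of these other cells in the spread of the 10 genes was not tested. At DN3, control pool 3 was the highest control pool in 8 genes, for instance with 1010.2 for *Bub1* against 275 to 489 in the other control pools. There, *Rag1* did not stand apart to the same extent, at 3425 in control pool 3 and 2484 to 2825 in the others.

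Across the 24 arrays the genes moved together to different degrees. Pearson's r between the log2 signals of *Bub1*, *Bub1b*, *Bub3*, *Mad2l1*, *Ttk*, *Cenpe* and *Cdc20* lay between 0.885 and 0.98 over 21 pairs, with a median of 0.938. *Knl1* had r of 0.202 to 0.751 with the other 9 genes, *Mad1l1* of 0.217 to 0.625, and *Zwint* of -0.074 to 0.266. The arrays share pools, stages and RNA extracts, so these values are a description of these libraries. Of 12040 other genes, those most like the mean of the 10 genes over the 24 arrays were *Cdk1* (r = 0.98), *Prc1* (0.98), *Tacc3* (0.97), *Ncapd2* (0.97) and *Aspm* (0.97), followed by *Mcm10*, *Cenpf*, *Plk1*, *Tpx2* and *Espl1* (0.96 to 0.97). *Cdk1* encodes the kinase that drives entry into mitosis, *Plk1* a mitotic kinase and *Espl1* separase, the protease that cuts cohesin once Cdc20 is released.

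Other genes of the kinetochore changed in the same direction between DN1 and DN2. Of 43 measured genes of a list of 44, 39 rose and 1 fell, with a median of 0.81. Of all probe sets, 28.5% were called higher and 31.2% lower. *Cenph*, of the inner kinetochore, rose by 1.92 (SE 0.25, limma adjusted p = 1.33e-05), and was at 322 to 439 in TLX1 and 284 to 348 in control pools at DN2. *Cenpo*, of the same layer, was at 1.03 (SE 0.10, limma adjusted p = 8.91e-07). *Clasp1*, a microtubule-binding protein of the outer kinetochore, was at 0.63 (SE 0.083). *Haspin*, the histone H3 kinase, was the 1 gene that fell, at -0.79 (SE 0.16, limma adjusted p = 0.000510). It was at 187 to 291 in TLX1 pools and 206 to 296 in control pools at DN1, and at 146 to 173 and 118 to 144 at DN2, without overlap. Without TLX1 pool 2 and control pool 3, 40 of the 43 rose, beside 30.3% of all probe sets. Between DN2 and DN3, 30 of 43 fell without them and 4 of 43 with them, beside 7.3% and 4.07% of all probe sets.

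The APC/C, the target of the checkpoint, changed less uniformly. Of 20 genes for its subunits and regulators, together with *Pttg1* and *Espl1*, 12 rose and 1 fell between DN1 and DN2. The list had a median of 0.30, beside 28.5% of all probe sets called higher and 31.2% lower. The subunit genes *Cdc27*, *Cdc26* and *Cdc16* were at 0.84 (SE 0.097), 0.73 (SE 0.082) and 0.64 (SE 0.096), and *Anapc11*, which encodes the RING subunit, fell by 0.54 (SE 0.11, limma adjusted p = 0.000833). Markers of the cell cycle moved beside them: 14 of 14 mitosis genes and 15 of 15 S phase genes rose, with medians of 0.95 and 1.04, both above the median of the 10 genes (0.79). Between DN2 and DN3, 1 of 14 mitosis genes and 0 of 15 S phase genes fell with all pools, against 13 and 9 without the 2 pools. The shares of all probe sets called lower were 4.07% and 7.3%. Whether the checkpoint genes changed apart from the share of dividing cells was not tested.

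The change between DN1 and DN2 was seen in each genotype on its own. *Bub1*, *Bub1b*, *Bub3*, *Ttk*, *Cenpe* and *Cdc20* were called higher in TLX1 pools and in control pools alike, 6 of 10 in each, beside 22.8% of all probe sets in TLX1 pools and 21.9% in control pools. *Ttk* was at 1.22 in TLX1 pools (SE 0.34, limma adjusted p = 0.00831) and at 1.22 in control pools (SE 0.34, adjusted p = 0.00925). *Mad2l1* missed the threshold in both, with adjusted p of 0.0710 in TLX1 and 0.122 in control pools. With 4 pools a genotype these counts rested on single pools: in TLX1 they were 1, 0 and 0 without TLX1 pool 1, 3 or 4, and in control 0, 1 and 0 without control pool 1, 2 or 4. The difference between the genotypes in this change, tested as an interaction, gave 0 calls of 10, and 0 at an unadjusted p under 0.05. It ranged from -0.21 (SE 0.31, *Knl1*) to 0.31 (SE 0.20, *Zwint*), and its SE was 0.64 for *Bub1b*, so that even large differences in this gene could have been missed.

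The comparison of TLX1 with control pools at a given stage asks whether the transgene goes with other levels of checkpoint genes before tumours appear. None of the 10 genes was called at DN1, DN2 or DN3 in limma, where 0.0037%, 0.0037% and 0.0185% of all probe sets were called. At an unadjusted p under 0.05 limma gave 0 genes at DN1, 2 at DN2 and 0 at DN3, beside 1.72%, 3.53% and 6.02% of all probe sets. The test of the study's methods gave 0, 4 and 1, beside 2.01%, 4.06% and 6.44%. With the thresholds of the study's methods, a p of at most 0.05 in an unpaired test and a fold change of at least 1.4, 0 of the 10 genes passed at each stage, beside 1.01%, 1.46% and 3.04% of all probe sets. The study's own filter, by detection flags, and its normalization were not repeated here, so these counts are not its counts. With 4 pools against 4, the smallest p of an exact permutation test is 0.0286, and so few pools limit how precisely each fold change is known. RNA quality differed between the genotypes and is given beside the levels: an index of 3' bias, the log2 signal of the 3' probe set over the 5' probe set averaged for *Gapdh* and *Actb*, had a mean of 0.057 ± 0.075 in the 4 TLX1 arrays and 0.257 ± 0.161 in the 4 control arrays of DN1 (SD, n = 4 each, exact permutation p = 0.0857). The mean index at DN2 was 0.216 ± 0.107 for TLX1 and 0.518 ± 0.328 for control arrays (exact permutation p = 0.0571), and at DN3 it was 0.184 ± 0.106 for TLX1 and 0.529 ± 0.030 for control arrays (exact permutation p = 0.0286, two-sided), where the ranges did not overlap. A higher value means more 3' bias. Values adjusted for the index are given where they change the direction of the median or of a gene named at that stage.

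At DN1 all 10 genes were higher in the mean of TLX1 pools, with a median log2 fold change of 0.18, against 0.008 over all probe sets. The spread was wide: *Ttk* was at 0.25 (SE 0.65) and *Cenpe* at 0.30 (SE 0.55), with adjusted p of 0.99995 in limma for both. The TLX1 and control ranges of all 10 genes overlapped, and 1.25% of all probe sets had ranges that did not. The median of the 10 genes was -0.13 without TLX1 pool 2 and -0.07 without control pool 4, and 0.67 without control pool 3, so its direction depended on single pools. After adjustment for the index of RNA quality it was -0.71. Control pool 3 had the lowest index of the control arrays at DN1, at 0.04 against 0.25 to 0.41. How far the adjusted value rests on this pool was not tested.

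At DN2, where the pools lay closest together, 9 of the 10 genes were higher in TLX1 pools, with a median of 0.22, against -0.02 over all probe sets. *Ttk* was at 493 to 536 in TLX1 pools and 359.6 to 473 in control pools, and *Mad2l1* at 1374 to 1604 in TLX1 pools and 1201 to 1360.2 in control pools. These 2 of 10 genes had ranges that did not overlap, as did 2.75% of all probe sets. Their log2 fold changes were 0.26 (SE 0.13) for *Ttk* and 0.21 (SE 0.12) for *Mad2l1*, with adjusted p of 0.9996 in limma for both. *Zwint* was at 614, 753, 652 and 502 in TLX1 pools and 531, 466, 376 and 460.0 in control pools, a change of 0.46 (SE 0.17, unadjusted p = 0.0284 in limma), and TLX1 pool 4 lay inside the control range. Its other tested probe sets went both ways. From the brightest to the dimmest, their mean log2 signals were 9.075, 9.103, 7.347, 6.604 and 4.141 in TLX1 pools. In control pools they were 9.078, 8.831, 7.028, 6.799 and 4.472. *Bub1b* was at 590.2 to 669 in TLX1 pools and 413 to 592 in control pools, a change of 0.35 (SE 0.14, unadjusted p = 0.0420 in limma), with an overlap of only the lowest TLX1 and the highest control pool. A second *Bub1b* probe set, at 500.2 to 562 in TLX1 pools and 363 to 432 in control pools, did not overlap, which made 3 of the 27 probe sets. No other probe set of *Ttk* did so. Control pool 3, whose array had the most 3' bias at DN2, was the lowest control pool in 3 of the 10 genes, *Zwint* and *Bub1b* among them. It was the highest control pool in 3 others.

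**Figure D5:**
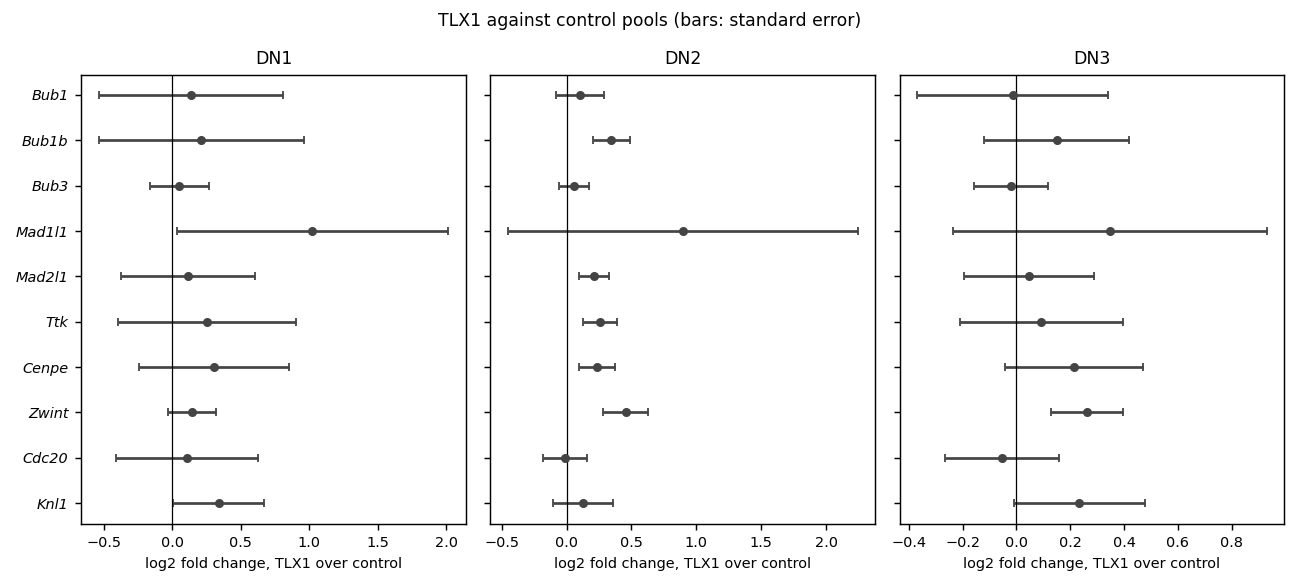
TLX1 over control log2 fold change ± SE (4 pools each, limma) of the 10 genes at DN1, DN2 and DN3. At DN1 the errors of most genes exceed the change itself, and at DN2 they are small for *Ttk* (0.13) and *Mad2l1* (0.12).

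At DN3, 7 of the 10 genes were higher in TLX1 pools, with a median of 0.12, against 0.009 over all probe sets. Directions were not all stable: under the alternative analyses *Ttk* ranged from -0.85 to 0.37 and *Mad1l1* from -1.89 to 0.80. These analyses include the fit with the RNA quality index, whose ranges did not overlap between the genotypes at DN3. In that fit the median SE over all probe sets was 0.57, against 0.22 in the main fit, so it separates genotype from index poorly. *Zwint* was at 644, 573, 536 and 533 in TLX1 pools and 427, 457, 485 and 538 in control pools, a change of 0.26 (SE 0.13, limma adjusted p = 0.881). Its other tested probe sets again went both ways. In the same order as at DN2, their mean log2 signals were 9.062, 8.952, 7.458, 6.939 and 4.404 in TLX1 pools. In control pools they were 9.073, 8.691, 6.816, 7.022 and 4.607. *Cenpe* was at 219, 228, 196 and 214 in TLX1 pools and 151, 192, 307 and 129 in control pools, a change of 0.22 (SE 0.26, limma adjusted p = 0.990). In *Cenpe* control pool 3 was the highest of the 8 pools and the other 3 control pools were the lowest. The ranges of 0 of the 10 genes were separate, against 3.89% of all probe sets, and the median of the 10 genes lay between -0.02 and 0.35 when single pools were left out.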

How the data were processed

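Total RNA of sorted thymocytes was labelled and hybridised to 24 Affymetrix mouse arrays, 1 for each of 8 pools at each of 3 stages. The intensity values are linear MAS5 signals, which the authors computed in the Affymetrix Expression Console (named in the submitters' processing notes) and deposited. Every array has a 2% trimmed mean of 150, so a general change of RNA content is not visible. Of 45101 probe sets, 64 array controls were used for RNA quality only. Signals under 1 were set to 1 and log2 transformed, and of the other 45037 the brightest 60% by mean log2 signal were kept (27022, lowest mean signal 9.02).

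Stages were compared in R 4.3.3 using limma 3.58.1 (and the package data.table, version 1.17.8), with the pool as a fixed block, since the arrays of a pool come from the same mice. The deviations of a pool from its group means were correlated between stages at 0.177 to 0.626. TLX1 and control pools were compared unpaired, 4 against 4 at each stage. p-values were adjusted over all kept probe sets (Benjamini-Hochberg), and an adjusted p under 0.05 is a call. The fits were tested on simulated data. The RNA quality index was compared with an exact permutation test. The pools are the replicates.

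The 10 genes, the lists and the tests were chosen with earlier results of these data known. All 10 genes are named by their brightest probe set. Of the other lists, up to 3 genes in each direction with the smallest p for DN2 over DN1 are named, and the 10 genes most like the members by Pearson's r. *Rag1*, *Ptcra* and *Top2a* were chosen for the pools that stand apart. Alternatives were an offset of 32, a filter that kept 40% or none at all, median centring, quantile normalization, array weights, no or a random pool block, 1 genotype alone, all 24 arrays, adjustment for sex or the RNA index, a replicate block, the methods' t-test, the median over a gene's probe sets, leaving out TLX1 pool 2 and control pool 3, and leaving out each pool in turn. Promoter sequences are from RefSeq (GRCm38.p6). Probe sets matching several genes (932) or none (9160) were not named.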

Additional observations from a re-analysis of the deposited data

Results flagged for a closer look

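In 60 groups of 4 pools (10 genes, 3 stages and both genotypes), 1 pool stood far from the other pools of its group in 3, as chance gives in about 1 of 20 groups. *Mad1l1* was at 3.80 in TLX1 pool 4 at DN2, against 48.4 to 59.0 in the other TLX1 pools. *Mad2l1* was at 1533 in control pool 3 at DN3, against 794 to 819.5 in the other control pools. *Zwint* was at 388 in control pool 2 at DN1, against 531 to 561 in the other control pools.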

How the results depend on the processing

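The count of genes called higher at DN2 than at DN1 (7) was 6 to 9 under the 18 alternatives run for it. Of the counts under alternatives, 159 equalled or lay within 1.5 times the reported count and 29 did not. Many of the 159 were 0 both times, which shows little about stability. These were 20 at each stage for TLX1 against control and 13 for DN3 over DN2. The difference between genotypes gave 18 more for DN2 over DN1 and 18 for DN3 over DN2. The count called lower at DN3 than at DN2 (0) was 4 after adjustment for the 3'/5' index, 8 with array weights, 2 with median centring, 7 without TLX1 pool 2 and control pool 3, and 0 to 5 when single pools were left out. The count called higher at DN3 than at DN1 (1) was 6 with the index, 6 with array weights, 5 with median centring, 0 with no filter, 0 with no pool block, 2 with an offset of 32, 2 with the stricter filter, 6 without both pools, and 0 to 5 when single pools were left out. Within a genotype (6 each), it was 3 in TLX1 and 3 in control pools with no pool block, and 0 to 7 in TLX1 and 0 to 8 in control pools when single pools were left out. The cause of these shifts was not tested.

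As the median over its probe sets, *Bub3* was at -0.31 (DN2 over DN1), 0.011 (DN3 over DN2) and -0.27 (DN3 over DN1). *Zwint* at DN3 over DN1 (-0.02) was 0.11 with the index, 0.18 with median centring, 0.0034 without both pools and 0.40 as the median over probe sets, and *Knl1* was 0.0697 with the index. For TLX1 over control with the index, *Ttk* was -0.99, *Cenpe* -0.66 and the median of the 10 genes -0.71 at DN1, and *Zwint* -0.0033 at DN3. When single pools were left out, DN2 over DN1 ranged from -0.18 to 0.37 for *Mad1l1* and from -0.0501 to 0.0768 for *Zwint*, DN3 over DN2 from -0.0845 to 0.0293 for *Zwint*, and DN3 over DN1 from -0.0629 to 0.23 for *Mad2l1* and from -0.0748 to 0.029 for *Zwint*. For TLX1 over control they were -0.0552 to 0.77 for *Cenpe* and -0.15 to 0.81 for *Ttk* at DN1, and for the median of the 10 genes -0.13 to 0.67 at DN1 and -0.0189 to 0.35 at DN3. At DN3, TLX1 over control also turned for *Ttk* (-0.85 to 0.37) and *Mad1l1* (-1.89 to 0.80) under the alternatives. No other direction of a gene named at the stage compared turned. TLX1 values of genes not named there also turned, such as *Bub1* at DN1 (-1.11 to 0.71 over 20 alternatives).

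Median centring moved the median DN2 over DN1 change of all probe sets to 0.29, against -0.06 as deposited, and the split of calls to 12720 higher and 4478 lower, against 7702 and 8435. With quantile normalization it was 9312 and 6545. The labels give no shared origin to pools of the same replicate number in both genotypes. Their deviations from the group means had r of 0.365 to 0.482 for number 4, 0.127 to 0.186 for number 1 and -0.345 to 0.036 for numbers 2 and 3 over the 3 stages, so that not every number went together. With the replicate block 0 genes were called at each stage, with a lowest adjusted p of 0.888 at DN2. The arrays' 4 pools a group, their 3' bias and the dim *Mad1l1* limit what these data can show.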
